A study of Mus musculus with 15 samples.

Results

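The genes described here are Ano3, Cpz, Ms4a10, Serpine2, Cd109, Ptprv, Plcd4, Casp14, Sec14l3 and Anxa8, 10 of the 23845 genes in the deposited tables. They were chosen from measured values, as genes outside the usual lists of p53 targets whose RNA was raised most over the control in every one of 4 helicase knockdowns. All 10 were among the 14335 genes that passed the filter on low counts, a filter that a gene could pass through its knockdown libraries alone. The libraries came from E14, a mouse embryonic stem cell line, grown on 0.2% gelatin. Small interfering RNA (400 ng, delivered with 4 µL of Lipofectamine 2000) was left on the cells for 16 h, and the cells were harvested at 48 h. The control group, EGFPKD, received small interfering RNA against EGFP, and the groups Ddx10KD, Ddx24KD, Ddx27KD and Ddx54KD received small interfering RNA against the DEAD-box helicase of that name. Each of the 5 groups held 3 biological replicates, which makes 15 libraries of poly(A) RNA. All groups shared the same cell line, dose and times, so each knockdown is seen in 1 line at 1 time point.

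As background, Ddx10, Ddx24, Ddx27 and Ddx54 are RNA helicases of the nucleolus that take part in ribosome assembly. When ribosome assembly is disturbed, free ribosomal proteins can bind Mdm2, the ligase that marks p53 for destruction, and p53 then activates genes such as Cdkn1a and Mdm2 itself. Most of the 10 genes are best known from differentiated tissues: Casp14 from cornifying epidermis, Serpine2 from brain and connective tissue, and Ptprv from osteoblasts, although Ptprv is also known from embryonic stem cells and has been described as a p53 target. They share no single pathway, and they are grouped below as extracellular regulators, membrane proteins, and enzymes and lipid-binding proteins of the cell interior.

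Libraries held 26836946 to 27708782 expected counts, the authors' estimated reads per gene. The 10 genes together held 678 to 773 of these in each EGFPKD library and 3590 to 6817 in each knockdown library. The targeted helicases stood at 18.5 ± 4.25% (Ddx10), 30.8 ± 4.89% (Ddx24), 22.7 ± 0.818% (Ddx27) and 28.0 ± 4.68% (Ddx54) of the control (SD, n = 3). Within the Ddx24KD group, replicate 2 stood apart, and not for the 10 genes alone. Its distance from replicates 1 and 3, as chi-square per gene, was 12.5 and 19.5, against 6.11 between replicates 1 and 3. Within the other groups this distance was 5.51 to 10.4. Replicate 2 was the lowest of the 12 knockdown libraries for 6 of the 10 genes and the lowest of its own group for 9. Its Ddx24 level of 34.3% of control was the highest of the group, beside 32.7% and 25.2% in replicates 1 and 3. Cdkn1a spanned 45.5 to 86.3 CPM (counts scaled to library size) in that group. The changes, the tests between knockdowns and the correlations are given with and without it.

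The change used to choose the genes is described here without a test. Genes were ordered by the smallest of their 4 log2 changes against EGFPKD, so that a gene stands high only if it is raised in all knockdowns. In this order Cpz was at rank 6, Casp14 at 7, Ano3 at 9, Plcd4 at 10, Ms4a10 at 13, Sec14l3 at 15, Ptprv at 26, Serpine2 at 27, Anxa8 at 67 and Cd109 at 83. The 10 genes are therefore not simply the first 10. Among the 28 genes that stood at or above Cd109 and reached 5 TPM (a level scaled for transcript length and for depth) in some group, 7 were of the 10. Casp14, Plcd4 and Sec14l3 stayed below 5 TPM. Just above Cd109, with a smallest log2 change of 2.02, stood Mlana (2.12), Wnt5a (2.10), Perp (2.08), Ptp4a3 (2.03) and Fam198b (2.02), and just below it Dmrtb1 (2.00), Nkx2-9 (1.97), Trim7 (1.95), Cd80 (1.93) and Ephx1 (1.91).

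**Figure D1:**
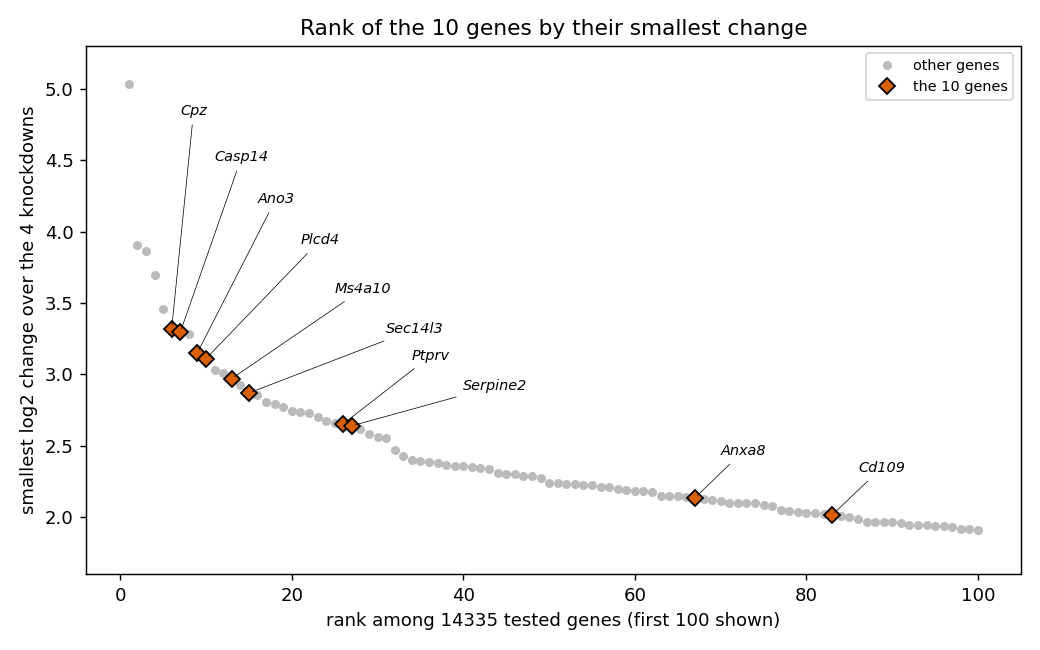
The first 100 of 14335 tested genes, ordered along the x axis by the smallest of their 4 log2 changes against EGFPKD (y axis). Orange diamonds are the 10 genes: 8 lie between ranks 6 and 27, and Anxa8 and Cd109 lie at ranks 67 and 83.

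The sequences around the start sites were compared by their letters. RefSeq promoters on GRCm38.p6, from 250 bases before to 50 bases after a start site, were found for 8 of the 10 genes, with 2 start sites each for Ano3 and Plcd4. Cd109 and Ptprv had no promoter in this set, so they were not searched. Cpz, Serpine2 and Ms4a10 are printed because they hold the only p53 half-site match, the most CG dinucleotides and none at all. All 3 lie on the reverse strand and are printed 5′ to 3′ along the gene: Cpz at chr5:35525577-35525876, Serpine2 at chr1:79858616-79858915 and Ms4a10 at chr19:10974651-10974950. Capitals mark the p53 half-site match in Cpz and every CG dinucleotide in the other two.
Cpz promoter: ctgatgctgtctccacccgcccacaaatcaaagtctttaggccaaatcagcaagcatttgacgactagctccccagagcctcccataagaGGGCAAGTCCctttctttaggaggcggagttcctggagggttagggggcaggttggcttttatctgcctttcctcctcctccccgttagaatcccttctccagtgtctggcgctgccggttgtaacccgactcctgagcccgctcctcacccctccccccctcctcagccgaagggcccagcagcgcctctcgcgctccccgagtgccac
Serpine2 promoter: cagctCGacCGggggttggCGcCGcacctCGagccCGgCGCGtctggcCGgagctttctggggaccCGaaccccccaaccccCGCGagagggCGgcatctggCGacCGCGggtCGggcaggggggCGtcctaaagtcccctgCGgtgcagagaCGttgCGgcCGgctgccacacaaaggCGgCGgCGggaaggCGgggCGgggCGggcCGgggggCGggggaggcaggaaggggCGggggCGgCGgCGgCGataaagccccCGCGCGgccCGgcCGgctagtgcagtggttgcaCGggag
Ms4a10 promoter: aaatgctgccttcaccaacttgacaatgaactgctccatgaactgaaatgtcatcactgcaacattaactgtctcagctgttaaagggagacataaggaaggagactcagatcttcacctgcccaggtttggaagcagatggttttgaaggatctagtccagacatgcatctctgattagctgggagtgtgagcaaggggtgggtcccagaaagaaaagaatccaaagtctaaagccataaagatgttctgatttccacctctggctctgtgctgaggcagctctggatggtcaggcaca
The match in Cpz begins at -160 from the start site. A p53 half-site (the 10-base consensus, which is its own reverse complement) was found in 1 of the 10 promoters of these 8 genes, and in 8.36% of all 32851 promoters in the table. A full site, which is 2 half-sites with a spacer of 0 to 13 bases, was in none of the 10 promoters and in 0.0731% of all. The letters GGGCGG, searched on both strands, were in 2 of the 10 promoters (Cpz with 1 match and Serpine2 with 6) and in 35.7% of all promoters. The letters TATAAA, also on both strands, were in 1 (the Ano3 start site at chr2:110840010-110840309) and in 13.6% of all. The Serpine2 promoter held 41 CG dinucleotides at 77.7% GC, against a median of 7 and 52.7% over all promoters. The other promoters held 0 to 13 CG dinucleotides at 43.7 to 60.3% GC, so Serpine2 alone stood far above the median among the 8 genes examined. A match in this window is a description of letters and not a binding site.

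Taken library by library, the 12 knockdown libraries lay above all 3 EGFPKD libraries in TPM for each of the 10 genes. This was so for 13.2% of all tested genes, and the choice of the 10 used this contrast. In RNA from whole cultures, more cells that make a message and more message per cell cannot be told apart.

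**Figure D2:**
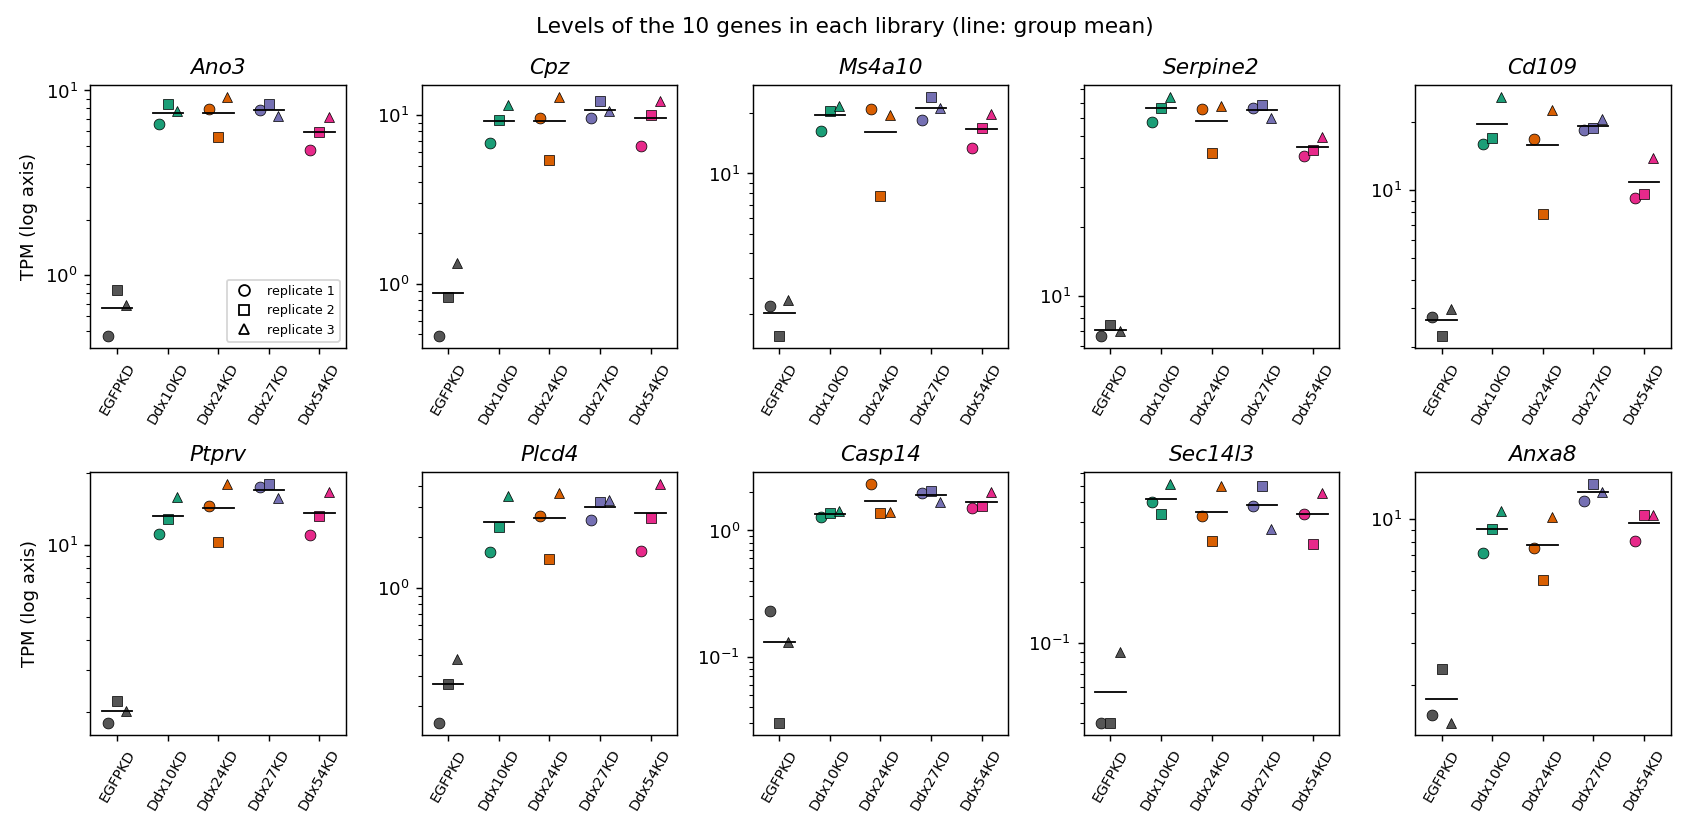
TPM (y axes, log scale) of the 10 genes in each library, by group along the x axes. Circles, squares and triangles are replicates 1, 2 and 3 and the line is the group mean: no knockdown point reaches the EGFPKD points, and the Ddx24KD square is often the lowest knockdown point.

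Of the extracellular regulators, Serpine2 was the most abundant. It encodes protease nexin-1, a secreted inhibitor of thrombin and plasminogen activators, and lies at chr1:79794197-79861180 on the reverse strand (this and the later gene positions are GENCODE M21 on GRCm38). The EGFPKD libraries held 6.66, 7.46 and 7.01 TPM. Ddx10KD held 57.7, 66.2 and 74.1, Ddx24KD 65.5, 41.9 and 67.6, Ddx27KD 66.4, 68.1 and 59.8, and Ddx54KD 41.0, 43.5 and 49.2 TPM. The control libraries lay close together, and the 3 Ddx54KD libraries lay below every Ddx10KD and Ddx27KD library. The log2 change against EGFPKD was 3.17 ± 0.15 (SE) in Ddx10KD, 3.03 ± 0.15 in Ddx24KD, 3.18 ± 0.15 in Ddx27KD and 2.64 ± 0.15 in Ddx54KD, where 3 stands for an 8-fold difference.

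Cpz encodes carboxypeptidase Z, a secreted zinc carboxypeptidase with a Wnt-binding domain (chr5:35502218-35525698, reverse strand). It was barely present in the control, at 0.49, 0.83 and 1.32 TPM. Levels were 6.82, 9.31 and 11.4 TPM in Ddx10KD, 9.52, 5.38 and 12.8 in Ddx24KD, 9.62, 12.01 and 10.5 in Ddx27KD, and 6.51, 9.95 and 12.1 in Ddx54KD. The ranges of the 4 knockdown groups overlapped, and Ddx27KD had the narrowest of them. Log2 changes were 3.32 ± 0.37 (SE), 3.37 ± 0.37, 3.58 ± 0.36 and 3.41 ± 0.36 in Ddx10KD, Ddx24KD, Ddx27KD and Ddx54KD.

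Cd109 encodes a membrane-anchored glycoprotein of the alpha-2-macroglobulin family that dampens TGF-beta signalling (chr9:78615546-78716253, forward strand). Its EGFPKD levels were 2.74, 2.25 and 2.98 TPM. The knockdown libraries held 16.0, 17.1 and 26.0 TPM in Ddx10KD, 16.96, 7.87 and 22.7 in Ddx24KD, 18.4, 18.9 and 20.7 in Ddx27KD, and 9.27, 9.61 and 13.9 in Ddx54KD. Ddx54KD was low in all 3 replicates, and the lowest single library was Ddx24KD replicate 2. Its log2 changes were 2.83 ± 0.29 (SE), 2.56 ± 0.29, 2.84 ± 0.29 and 2.02 ± 0.29 in the order Ddx10KD, Ddx24KD, Ddx27KD and Ddx54KD, the widest span of the 10 genes (0.82).

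Among the membrane proteins, Ano3 belongs to the anoctamins, a family of calcium-activated chloride channels and lipid scramblases (chr2:110655201-110950923, reverse strand). Control libraries held 0.47, 0.83 and 0.69 TPM. Knockdown libraries held 6.57, 8.41 and 7.72 TPM in Ddx10KD, 7.94, 5.59 and 9.23 in Ddx24KD, 7.87, 8.46 and 7.32 in Ddx27KD, and 4.77, 5.99 and 7.17 in Ddx54KD. Even the lowest knockdown library was 5.75 times the highest control library, the widest such gap among the 10. The log2 change was 3.46 ± 0.22 (SE) in Ddx10KD, 3.50 ± 0.22 in Ddx24KD, 3.55 ± 0.22 in Ddx27KD and 3.15 ± 0.22 in Ddx54KD. One Ano3 exon shares 61 bases with Muc15 on the opposite strand, which had too few counts to be tested.

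Ms4a10 belongs to a family of multi-pass membrane proteins whose best-known member is the B cell antigen encoded by Ms4a1 (chr19:10962293-10974670, reverse strand). Its control levels were 2.18, 1.55 and 2.34 TPM. It reached 16.2, 20.4 and 21.8 TPM in Ddx10KD, 21.0, 7.73 and 19.6 in Ddx24KD, 18.4, 24.1 and 21.2 in Ddx27KD, and 13.4, 16.9 and 19.7 in Ddx54KD. Apart from Ddx24KD replicate 2, no knockdown library lay below 13.4 TPM. Log2 changes ran from 2.97 ± 0.33 (SE) in Ddx24KD through 3.02 ± 0.33 in Ddx54KD and 3.20 ± 0.33 in Ddx10KD to 3.36 ± 0.32 in Ddx27KD.

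Ptprv encodes a receptor-type tyrosine phosphatase in mouse (chr1:135108497-135132594, reverse strand), and GENCODE lists it as a processed transcript and RefSeq as a transcribed pseudogene. EGFPKD held 1.80, 2.22 and 2.02 TPM. No knockdown library held less than 10.2 TPM, with 11.1, 12.8 and 15.8 in Ddx10KD, 14.5, 10.2 and 18.0 in Ddx24KD, 17.5, 17.9 and 15.6 in Ddx27KD, and 11, 13.2 and 16.6 in Ddx54KD. The Ddx27KD libraries were the most even and lay near the top. Its log2 change was 2.65 ± 0.20 (SE) in Ddx10KD, 2.81 ± 0.20 in Ddx24KD, 3.06 ± 0.20 in Ddx27KD and 2.73 ± 0.20 in Ddx54KD.

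Of the intracellular proteins, Anxa8 is an annexin, a protein that binds membrane phospholipids when calcium is present (chr14:34085981-34100571, forward strand). Its control levels were 1.49, 2.33 and 1.38 TPM. Knockdown levels were 7.19, 9.07 and 10.8 TPM in Ddx10KD, 7.50, 5.54 and 10.1 in Ddx24KD, 11.9, 14.1 and 12.97 in Ddx27KD, and 8.07, 10.3 and 10.4 in Ddx54KD. All 3 Ddx27KD libraries lay above the other 9 knockdown libraries. Its log2 changes were 2.31 ± 0.24 (SE) in Ddx10KD, 2.14 ± 0.24 in Ddx24KD, 2.87 ± 0.23 in Ddx27KD and 2.44 ± 0.24 in Ddx54KD. Anxa8 has 2 counted transcripts, and its abundance-weighted length was 1879 bases in EGFPKD and 1878 in the knockdowns. The difference of -1.28 bases had p = 0.684 in an exact two-sided permutation test over 455 arrangements of the 15 libraries. Every EGFPKD library stood at 1879 bases, the longest value seen. No arrangement of these values could lie further toward shorter knockdown lengths, so the test cannot decide on such a shift.

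Plcd4 encodes a phospholipase C of the delta class, which splits a membrane phosphoinositide into second messengers (chr1:74542888-74567794, forward strand). Its control level was 0.16, 0.27 and 0.38 TPM, and the 12 knockdown libraries ran from 1.47 (Ddx24KD replicate 2) through a median of 2.62 to 4.12 (Ddx54KD replicate 3). Replicates of a knockdown differed more than the knockdowns did from one another. Summed counts were 30 in EGFPKD and 267 to 329 in the knockdowns, a ratio scaled for depth of 8.75 (95% exact binomial interval 5.99 to 13.2) in Ddx10KD, 9.54 (6.54 to 14.4) in Ddx24KD, 10.96 (7.53 to 16.5) in Ddx27KD and 10.2 (6.98 to 15.3) in Ddx54KD. These intervals cover counting error only. One Plcd4 exon shares 1601 bases with Zfp142 on the opposite strand, and whether the counting used strand is not given in the sources used here, so reads of the pair may be mixed. Zfp142, at 18.2 TPM in EGFPKD, had log2 changes of -0.16 ± 0.06 (SE), -0.15 ± 0.06, -0.19 ± 0.06 and -0.21 ± 0.06 in Ddx10KD, Ddx24KD, Ddx27KD and Ddx54KD, with edgeR adjusted p of 0.0569, 0.0838, 0.0265 and 0.0203. With the replicate number as a block those values were 0.00464, 0.00929, 0.00139 and 0.000727. Zfp142 thus had the opposite sign to Plcd4.

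Casp14 encodes the caspase of cornifying keratinocytes, which processes filaggrin and is not known for cell death (chr10:78711991-78718294, reverse strand). It had 7, 1 and 4 counts in the EGFPKD libraries, or 0.23, 0.03 and 0.13 TPM. Knockdown libraries ran from 1.27 TPM (Ddx10KD replicate 1) through a median of 1.53 to 2.35 (Ddx24KD replicate 1). With so few control counts the size of the ratio is loosely set: 10.1 (5.57 to 20.03) in Ddx10KD, 13.1 (7.29 to 25.9) in Ddx24KD, 14.6 (8.14 to 28.8) in Ddx27KD and 12.9 (7.19 to 25.5) in Ddx54KD.

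Sec14l3, a lipid carrier of the SEC14 family (chr11:4064841-4077736, forward strand), was the least abundant of the 10. It had 2, 2 and 5 counts in the EGFPKD libraries (0.04, 0.04 and 0.09 TPM), and 0.31 to 0.62 TPM in the 12 knockdown libraries with a median of 0.46. The ratios were 8.74 (4.38 to 19.8) in Ddx10KD, 7.84 (3.90 to 17.9) in Ddx24KD, 8.44 (4.22 to 19.2) in Ddx27KD and 7.57 (3.76 to 17.2) in Ddx54KD. The intervals of the 4 knockdowns overlapped almost wholly.

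Across the 10 genes the median log2 change was 3.14 in Ddx10KD, 3.00 in Ddx24KD, 3.27 in Ddx27KD and 2.94 in Ddx54KD, beside medians of 0.00 to 0.01 over all tested genes. The 4 comparisons share the same control libraries. Ddx27KD had the largest change for 9 of the 10 genes, the exception being Sec14l3, and the smallest change lay in Ddx10KD for 4 genes (Cpz, Ptprv, Plcd4 and Casp14), in Ddx54KD for 4 (Ano3, Serpine2, Cd109 and Sec14l3) and in Ddx24KD for 2 (Ms4a10 and Anxa8). The order rests on 1 library. Without Ddx24KD replicate 2 the largest change lay in Ddx27KD for 4 genes (Ms4a10, Ptprv, Casp14 and Anxa8) and in Ddx24KD for the other 6, and the smallest lay in Ddx10KD for 5, in Ddx54KD for 5 and in Ddx24KD for 0. The Ddx24KD median was then 3.25, and the log2 changes there moved to 3.29 ± 0.21 (SE) for Ms4a10, 2.87 ± 0.20 for Cd109 and 2.31 ± 0.23 for Anxa8. The authors' deposited table for each knockdown gives posterior ratios of 4.91 to 10.9 in Ddx10KD, 5.54 to 12.8 in Ddx24KD, 7.13 to 13.2 in Ddx27KD and 4.02 to 11.7 in Ddx54KD for these genes. In the authors' deposited tables the posterior probability of a difference was lowest, at 0.618, for Sec14l3 in Ddx10KD, and next lowest, at 0.998, for Cd109 in Ddx24KD. The deposited Ddx24KD ratios lay up to 0.69 (log2, for Casp14) from those of the deposited libraries, against 0.18 at most in the other tables, so they did not follow from the libraries as the others did.

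**Figure D3:**
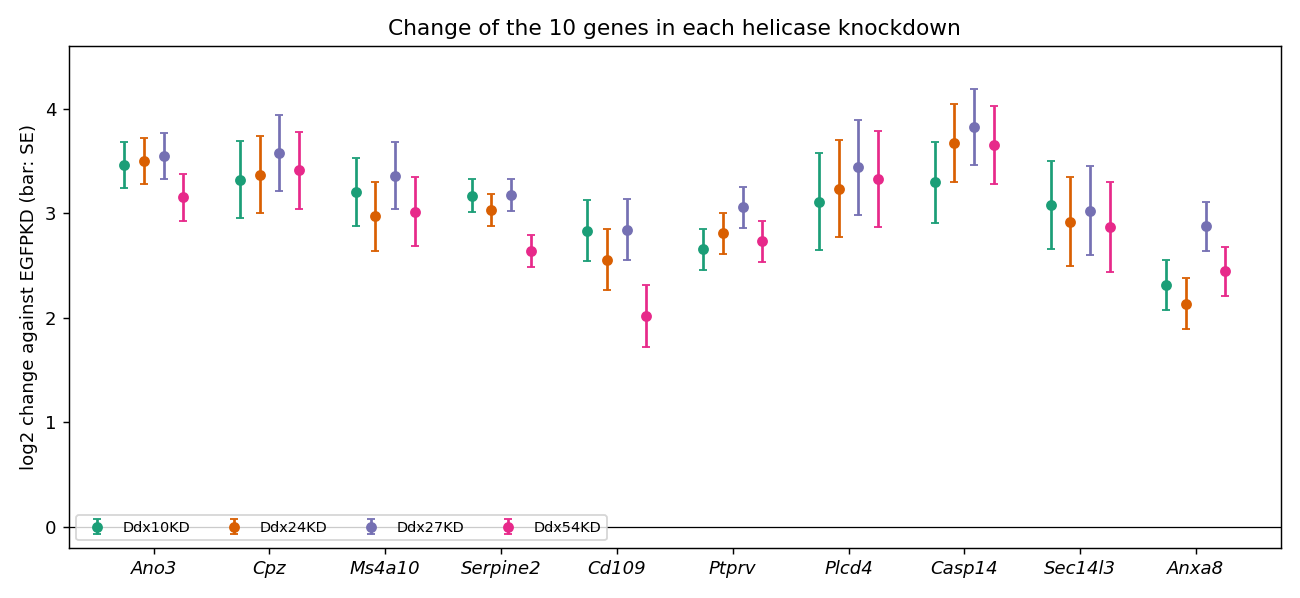
Log2 change against EGFPKD (y axis) of each of the 10 genes in the 4 knockdowns, with the SE of the fit as bars. The points of 1 gene mostly lie within an SE or so of each other, apart from the lower Ddx54KD points of Serpine2 and Cd109 and the higher Ddx27KD point of Anxa8.

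The 10 genes were also compared between knockdowns. The choice used each knockdown's change against EGFPKD and disfavours a gene that is low in any one of them, so these comparisons are not independent of it. By the edgeR quasi-likelihood test none of the 10 was called among the 4 knockdowns (background 0.495% of tested genes), with 3 at an unadjusted p under 0.05. None was called in the 6 pairs either. Background shares and counts at an unadjusted p under 0.05 were 0.412% and 0 genes for Ddx10KD against Ddx24KD, 0.223% and 3 for Ddx10KD against Ddx27KD, 1.43% and 2 for Ddx10KD against Ddx54KD, 0.0209% and 1 for Ddx24KD against Ddx27KD, 0.0558% and 1 for Ddx24KD against Ddx54KD, and 0.014% and 4 for Ddx27KD against Ddx54KD. The replicate numbers pair the libraries, and with that number as a block 3 genes were called among the knockdowns: Cd109 (adjusted p = 0.00841), Anxa8 (0.0153) and Serpine2 (0.0157), beside a background of 11.2%. DESeq2 called 1, Serpine2 (adjusted p = 0.0125, background 3.04%). Over the pairs DESeq2 called 1 gene for Ddx10KD against Ddx54KD (background 3.32%) and 1 for Ddx27KD against Ddx54KD (0.231%). It called none for Ddx10KD against Ddx24KD (1.34%), Ddx10KD against Ddx27KD (1.47%), Ddx24KD against Ddx27KD (0.0349%) and Ddx24KD against Ddx54KD (0.14%).

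Serpine2 was higher in Ddx10KD than in Ddx54KD by 0.53 ± 0.13 (log2, SE), with an edgeR adjusted p of 0.0569, and of 0.00726 with the block. Its difference between Ddx27KD and Ddx54KD was 0.54 ± 0.13, with adjusted p of 0.311 and, with the block, 0.0193. DESeq2 called both, at adjusted p of 0.00784 and 0.0479. Cd109 showed the same order with a wider spread, at 0.81 ± 0.26 for Ddx10KD over Ddx54KD (0.138, and 0.00436 with the block) and 0.82 ± 0.26 for Ddx27KD over Ddx54KD (0.453, and 0.0121 with the block). DESeq2 did not call Cd109 in either pair (0.163 and 0.388).

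Anxa8 differed the other way, lower in Ddx10KD than in Ddx27KD by a log2 difference of -0.56 ± 0.19 (SE), with an edgeR adjusted p of 0.273, and of 0.0341 with the block. Against Ddx24KD, Anxa8 was also highest in Ddx27KD (-0.74 ± 0.19 for Ddx24KD against Ddx27KD), which was not called in either fit (0.998, and 0.115 with the block). With the block, then, 1 of 10 genes was called for Ddx10KD against Ddx27KD (background 5.34%), 2 for Ddx10KD against Ddx54KD (10.6%), 2 for Ddx27KD against Ddx54KD (2.62%) and none in the other pairs (5.41% for Ddx10KD against Ddx24KD, 0.0558% for Ddx24KD against Ddx27KD and 1.74% for Ddx24KD against Ddx54KD). The first 2 of these shares are not far from their backgrounds. Without Ddx24KD replicate 2 and without the block, Serpine2 and Cd109 were called in Ddx10KD against Ddx54KD (edgeR adjusted p = 0.00433 and 0.0165, background 2.36%). Serpine2 was then also called in Ddx24KD against Ddx54KD (0.0212, background 0.18%) and Ddx27KD against Ddx54KD (0.0273, background 0.0759%). Among the 4 knockdowns the same 2 genes were called (0.00812 and 0.0362, background 1%).

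For the other 7 genes no pair was called in either edgeR fit or by DESeq2, which gave no adjusted p to Casp14 and Sec14l3 in Ddx10KD against Ddx27KD or to Sec14l3 in Ddx27KD against Ddx54KD and among the knockdowns. Ano3 was 0.40 ± 0.17 (log2, SE) higher in Ddx27KD than in Ddx54KD (edgeR adjusted p = 0.603, and 0.141 with the block). Ptprv was lower in Ddx10KD than in Ddx27KD, at -0.40 ± 0.17 (0.373, and 0.0716 with the block). Casp14 in the same pair differed by -0.53 ± 0.25 (0.434, and 0.197 with the block). The unadjusted edgeR p values for Ano3, Ptprv and Casp14 in these pairs were 0.0328, 0.0279 and 0.0467. With the block they were 0.00998, 0.00500 and 0.0348. After adjustment over all tested genes these differences were not called. For Plcd4 the SE of a pair was 0.32 to 0.33, so that only large differences could have been seen.

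The 10 genes also varied together within the knockdown groups. Replicate 1 was the lowest of its group for 9 of the 10 genes in Ddx10KD and for 9 in Ddx54KD. In replicates 1, 2 and 3 the target stood at 22.9, 18.3 and 14.4% of control in Ddx10KD and 31.6, 29.6 and 22.7% in Ddx54KD. In Ddx27KD it stood at 23.3, 23.0 and 21.8%, and replicates 1 and 3 were each the lowest for 5 genes. The part of the target level in these differences was not tested. With each group's mean subtracted, the 45 correlations between pairs of the 10 over the 12 knockdown libraries were all positive, from 0.147 to 0.963 with a median of 0.840. Casp14 had the lowest mean correlation with the rest (0.363), followed by Sec14l3 (0.567), and both have few counts, while the other 8 had 0.754 to 0.826. Further settings were chosen after seeing the data. Without Ddx24KD replicate 2, 43 of the 45 were positive, from -0.121 to 0.956 with a median of 0.742. With the replicate means removed as well as the group means, the correlations ran from 0.338 to 0.980 with a median of 0.892, and with both changes from 0.0706 to 0.991 with a median of 0.670. The median of the 10 genes against EGFPKD was 2.34 in Ddx24KD replicate 2 and 2.46 in Ddx54KD replicate 1, and 2.70 to 3.32 in the other 10 knockdown libraries. A list of 29 tested p53 targets had its lowest median in the same library, at 0.700, against 0.854 to 1.40 in the others. The part of p53 in the level of the 10 genes was not tested.

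**Figure D4:**
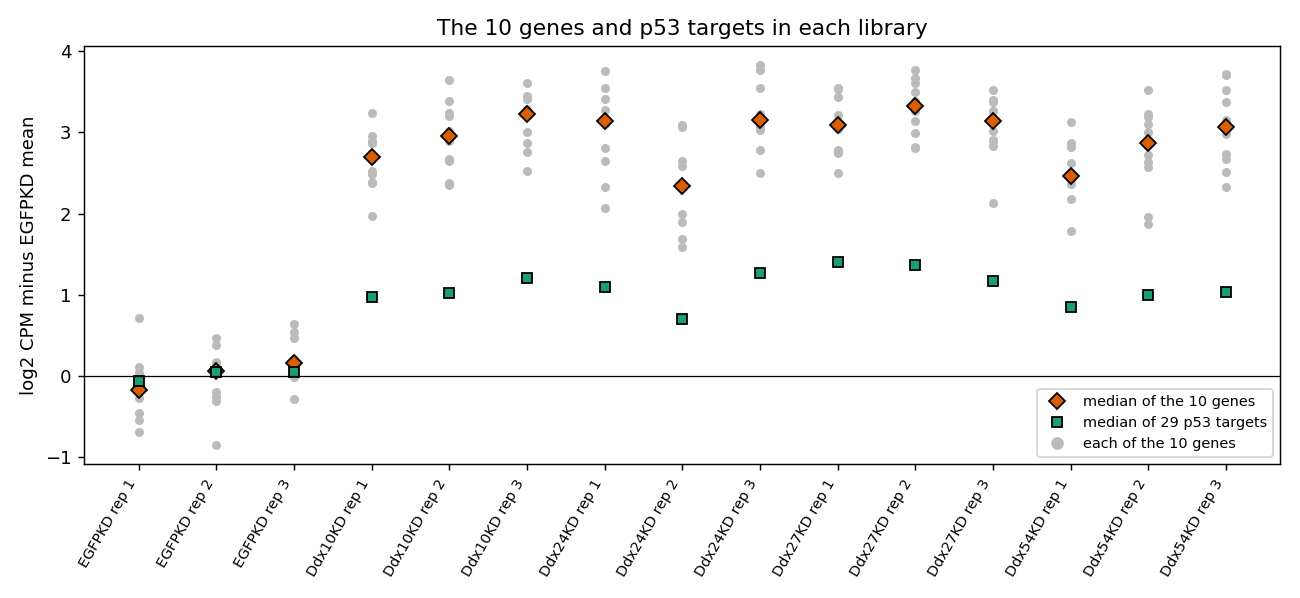
Log2 CPM minus the EGFPKD mean (y axis) in each library (x axis) for each of the 10 genes (grey), their median (orange) and the median of 29 p53 targets (green). Both medians are lowest among the knockdown libraries in Ddx24KD replicate 2, at 2.34 and 0.700.

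Genes were then ranked by the correlation of their log2 CPM with the mean of the 10 genes, as a description of 15 libraries that share cells and protocol. Over all 15 libraries, in which the step from EGFPKD to the knockdowns dominates, the closest of 9518 genes were Ddit4l (0.997), Ptp4a3 (0.996), the syndecan Sdc4 (0.996), the polo-like kinase Plk2 (0.996), Trp53inp1 (0.995), endoglin (Eng, 0.995), Slc4a11 (0.994) and the lysosomal mannosidase Man2b1 (0.993). Ddit4l, Plk2 and Trp53inp1 are on the p53 list. Over the 12 knockdown libraries with group means removed the closest were Slc4a11 (0.990), the secreted peroxidase Gpx3 (0.985), pyruvate carboxylase (Pcx, 0.982), Cyp4f17 (0.980) and Mdm2 (0.979). Slc4a11, a membrane transporter, stood in both. The median over all candidates was -0.07 in the first ranking and -0.06 in the second, and over 27 p53 targets it was 0.965 and 0.771. The second ranking depends on the library set. Without Ddx24KD replicate 2, 7 of the 8 genes stayed among the first 8 of the first ranking, but only 2 of the 5 (Slc4a11 at rank 2 and Pcx at 3) stayed among the first 5 of the second, with Mdm2 at rank 20 (0.956). The p53 medians were then 0.973 and 0.686. With replicate means removed too, over the 12 knockdown libraries, 1 of the 5 (Slc4a11) stayed among the first 5. Mdm2 was at rank 28 (0.978), and the p53 median was 0.900. With both changes Slc4a11 was again the 1 that stayed, Mdm2 was at rank 118 (0.921), and the p53 median was 0.832.

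As a whole, relatives of the 10 genes had a median change near that of all genes. Of 133 relatives listed for the 10 families, 77 were tested. A relative, too, could pass the count filter through its knockdown libraries alone. The median log2 change of the 77 was 0.03 in Ddx10KD, 0.01 in Ddx24KD, 0.01 in Ddx27KD and 0.00 in Ddx54KD, against 0.01, 0.00, 0.01 and 0.01 over all genes. By edgeR, 16 were called higher and 14 lower in Ddx10KD, 12 and 11 in Ddx24KD, 18 and 13 in Ddx27KD, and 11 and 6 in Ddx54KD. These are 39%, 29.9%, 40.3% and 22.1% of the relatives, beside 31%, 28.1%, 33.4% and 24.3% of all tested genes. With the block 38, 35, 40 and 31 were called, beside backgrounds of 44%, 41.2%, 45.8% and 38.9%. Relatives called in all 4 knockdowns in 1 direction are named next, where the shares over all tested genes were 9.32% higher and 7.31% lower.

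**Figure D5:**
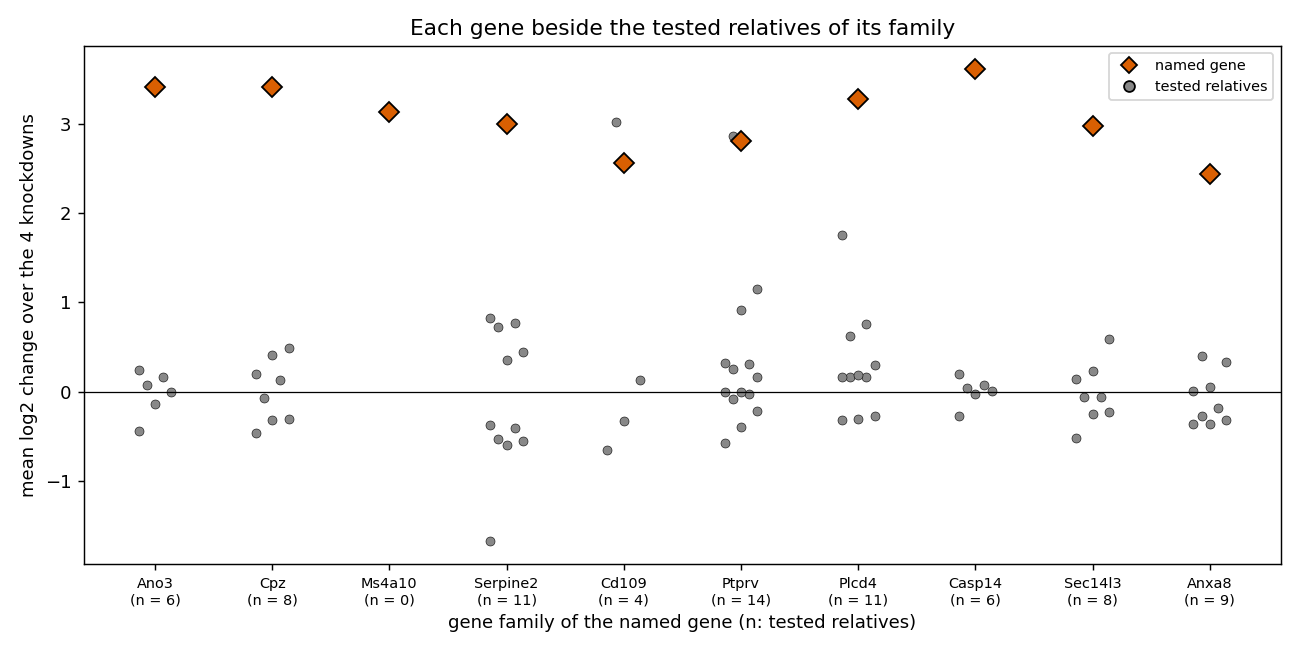
Mean log2 change over the 4 knockdowns (y axis) of each of the 10 genes (orange) and of the tested relatives in its family (grey), with the number of relatives under each name. Most relatives lie near 0, and C4b beside Cd109 and Ptprt beside Ptprv lie furthest above it. Plch2 beside Plcd4 (1.76) and Ptpre beside Ptprv (1.15) also lie above 0, and Serpinf1 beside Serpine2 (-1.67) lies below. No relative of Ms4a10 was tested.

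Among relatives of the extracellular regulators, serpins changed in both directions. Of 11 tested serpins, 3 were higher in all 4 knockdowns: the complement inhibitor Serping1 (log2 0.91, 0.70, 0.90 and 0.78 in Ddx10KD, Ddx24KD, Ddx27KD and Ddx54KD), the neuroserpin gene Serpini1 (0.97, 0.73, 0.75 and 0.62) and the collagen chaperone Serpinh1 (0.93, 0.57, 0.82 and 0.56). Serpinf1, an antiangiogenic serpin, fell in all 4 (-1.64, -1.78, -1.71 and -1.56). Serpinb6a also fell in all 4, by less (-0.53, -0.38, -0.42 and -0.29). Of 8 tested metallocarboxypeptidases Cpxm1 alone was called in all 4, and it fell (-0.31, -0.59, -0.46 and -0.48). Of 4 tested relatives of Cd109, complement C4b rose in all 4, by 2.79 ± 0.40 (SE), 3.04 ± 0.39, 3.51 ± 0.38 and 2.73 ± 0.40, from 0.0867 ± 0.0208 TPM in EGFPKD to between 0.597 and 1.02 (group means).

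Among relatives of the membrane proteins, 4 of 14 tested receptor-type phosphatases rose in all 4 knockdowns, namely Ptprt, Ptpre, Ptprn and Ptprs. Ptprt, a phosphatase of cell adhesion, changed about as much as Ptprv, by 2.78 ± 0.45 (log2, SE), 3.24 ± 0.44, 3.21 ± 0.44 and 2.24 ± 0.48, at a far lower level (0.0533 TPM in EGFPKD). Ptprn changed by 0.95, 0.83, 1.11 and 0.77 and Ptprs by 0.27, 0.29, 0.42 and 0.24. Ptpre changed by 1.16, 1.45 and 1.21 in Ddx24KD, Ddx27KD and Ddx54KD, and its call in Ddx10KD (0.78, edgeR adjusted p = 0.0483) was lost with RLE scaling (0.0502) and without any 1 of 10 libraries (0.0535 to 0.229), namely the 3 EGFPKD and the 3 Ddx27KD libraries, Ddx10KD replicates 2 and 3, Ddx24KD replicate 1 and Ddx54KD replicate 1. Of 6 tested anoctamins only Ano7 was called, in Ddx27KD (0.92 ± 0.29, adjusted p = 0.0202), and DESeq2 called none. In the other 3 knockdowns no anoctamin was called, with 1, 0 and 1 at an unadjusted p under 0.05 in Ddx10KD, Ddx24KD and Ddx54KD, and with the block 1 was lower in Ddx24KD and 1 in Ddx54KD. The 15 other MS4A genes in the files all had too few counts to be tested, so Ms4a10 was the only tested gene of its family.

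Among relatives of the intracellular proteins, phospholipase C genes were called higher in 5, 4, 6 and 1 of 11 cases in Ddx10KD, Ddx24KD, Ddx27KD and Ddx54KD (8, 7, 7 and 5 with the block) and lower in 2, 1, 2 and 0. Over all tested genes 16.5%, 15%, 17.3% and 13.1% were called higher, and 22.8%, 21.3%, 23.3% and 20% with the block. Of the phospholipase C genes Plch2 alone rose in all 4 (1.6 ± 0.26, 1.84 ± 0.25, 2.06 ± 0.25 and 1.53 ± 0.26, log2, SE). No other caspase was called by edgeR or DESeq2 in any knockdown, of 6 tested, with 1 at an unadjusted p under 0.05 in Ddx24KD and 1 in Ddx27KD. With the block, 1 caspase was called higher in each of these 2 knockdowns. Of 9 tested annexins 4, 3, 4 and 2 were called lower and 1, 0, 0 and 1 higher, beside 14.5%, 13.1%, 16.1% and 11.2% of all tested genes called lower, and Anxa7 fell in all 4 (-0.48, -0.33, -0.38 and -0.24). Of 8 tested SEC14-like lipid carriers none was called higher in any knockdown (1 with the block in Ddx10KD and 1 in Ddx27KD), while Sec14l1 fell in Ddx10KD (-0.38), Ddx27KD (-0.21) and Ddx54KD (-0.21), and Rlbp1, a retinoid carrier, fell in Ddx10KD (-0.80) and Ddx24KD (-0.70).

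Genomic neighbours were examined as well, taking the nearest tested gene on each side of each of the 10. A neighbour could pass the count filter through its knockdown libraries alone, as could the genes behind the background shares. This favours higher calls for genes near 0 in EGFPKD. Of these 20 neighbours, 3 were called higher in Ddx10KD, 4 in Ddx24KD, 7 in Ddx27KD and 5 in Ddx54KD, and 1 lower (Mrpl44 in Ddx10KD, beside Serpine2). Over all tested genes 16.5%, 15%, 17.3% and 13.1% were called higher in these knockdowns, and 14.5%, 13.1%, 16.1% and 11.2% lower. With the block 4, 9, 8 and 7 were higher and 2, 0, 2 and 1 lower, the higher calls beside backgrounds of 22.8%, 21.3%, 23.3% and 20%. Ccdc86, 13027 bases from Ms4a10, rose in all 4 by 0.36, 0.41, 0.42 and 0.28 (log2), and Col12a1, 882738 bases from Cd109, by 1.19, 1.32, 1.15 and 1.29 from 0.0433 TPM.

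The largest neighbour changes were next to Ano3 and Anxa8. Slc5a12, a lactate transporter gene 7422 bases from Ano3 and at only 0.01 TPM in EGFPKD, changed by 3.37 ± 0.85 (log2, SE) in Ddx24KD, 3.73 ± 0.81 in Ddx27KD and 3.28 ± 0.86 in Ddx54KD, and was not called in Ddx10KD (1.96 ± 1.04, edgeR adjusted p = 0.169). Npy4r, a neuropeptide receptor gene 43421 bases from Anxa8, changed by 1.54, 2.33 and 1.69 in the same 3 knockdowns, with 1.13 ± 0.45 and an adjusted p of 0.067 in Ddx10KD. Ptprv lies 106 bases from Ptpn7, a phosphatase of blood cells, which was higher in Ddx27KD (1.24 ± 0.29) and Ddx54KD (0.94 ± 0.29) and, with the block, in Ddx24KD (0.69 ± 0.30, adjusted p = 0.0955, and 0.0202 with the block). On its other side Lgr6, at 3221 bases, was higher in Ddx27KD (0.64 ± 0.20) and, with the block, in Ddx24KD (0.52 ± 0.20, adjusted p = 0.0658, and 0.0405 with the block). Whether reads of Ptprv and its close neighbours were separated in the counting is not given in the sources used here. Of the neighbours of Cpz, Trmt44 was not called in any knockdown in either fit, and Lrpap1 was called in Ddx54KD with the block (0.23 ± 0.12, edgeR adjusted p = 0.171, and 0.00423 with the block). Sec14l4, of the same family as Sec14l3 and 16817 bases from it, was not called in any knockdown in either fit.

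The p53 targets give a scale for these changes. Of 29 tested, 26, 24, 25 and 25 were called higher in Ddx10KD, Ddx24KD, Ddx27KD and Ddx54KD and none lower without the block, with medians of 1.06, 1.06, 1.28 and 0.95. The shares called higher over all tested genes were 16.5%, 15%, 17.3% and 13.1%. With the block 27, 25, 26 and 25 were called higher, beside 22.8%, 21.3%, 23.3% and 20% of all tested genes, and 0, 0, 1 and 0 lower. The p53 list was drawn up with results of these libraries known. The 4 highest of the 24 that rose in all 4 had mean log2 changes of 3.20 (Fas, a death receptor), 2.60 (Plk2), 2.43 (Ddit4l) and 2.10 (Perp, a membrane protein of desmosomes), a range that also holds the mean changes of Serpine2 (3.00), Ms4a10 (3.14), Sec14l3 (2.97), Ptprv (2.81), Cd109 (2.56) and Anxa8 (2.44). The means of Casp14 (3.61), Cpz (3.42), Ano3 (3.41) and Plcd4 (3.28) lay above that range. Its top rests on Fas, at only 0.0833 TPM in EGFPKD.

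Markers of cell types were listed because several of the 10 genes are known from differentiated cells. Summed over 10 stem cell markers, TPM was 7852 to 8282 across all 15 libraries with no separation of groups, a sum in which Dppa5a (2400 TPM in EGFPKD) and Pou5f1 (1654) weigh heavily. Single stem cell markers did change by the edgeR test. Of 10 tested, 0, 1, 1 and 1 were called higher and 3, 2, 3 and 2 lower in Ddx10KD, Ddx24KD, Ddx27KD and Ddx54KD. With the block 2, 3, 3 and 3 were higher and 5, 4, 5 and 4 lower. Shares called in either direction over all tested genes were 31%, 28.1%, 33.4% and 24.3%, and 44%, 41.2%, 45.8% and 38.9% with the block. The single calls named next are without the block. Zfp42 fell in all 4 (-0.33, -0.33, -0.40 and -0.30 in Ddx10KD, Ddx24KD, Ddx27KD and Ddx54KD, log2). Nanog fell in Ddx10KD (-0.47), Ddx24KD (-0.32) and Ddx27KD (-0.43), with -0.19 and an adjusted p of 0.0730 in Ddx54KD. Pou5f1 fell in Ddx27KD (-0.18) and Ddx54KD (-0.16) and Fgf4 in Ddx10KD (-0.52), and Sox2 rose in Ddx24KD (0.24), Ddx27KD (0.26) and Ddx54KD (0.23). Over 11 keratinocyte markers the sum was 4.47 to 4.63 TPM in EGFPKD and 4.48 to 8.24 in the knockdowns, with 9 of 11 under a mean of 1 TPM in every group and Ivl, which encodes the cornified envelope protein involucrin, at 0 throughout. Of 4 tested keratinocyte markers, Sbsn and Krt15 were called higher in Ddx27KD and Ddx54KD, and Sbsn in Ddx24KD. Fibroblast markers summed to 20.2 to 27.9 TPM in EGFPKD and 14.1 to 19.5 in the knockdowns. Of 5 tested, Thy1 (20.3 TPM in EGFPKD), also a surface protein of other cells, was the 1 called without the block, and it fell in all 4 (-0.73, -0.73, -0.76 and -0.48). With the block 0, 0, 2 and 1 fibroblast markers were called higher and 1 lower in each knockdown. Over all tested genes 22.8%, 21.3%, 23.3% and 20% were called higher with the block. Extraembryonic endoderm markers summed to 36.2 to 40.4 and 26.3 to 39.8 TPM, and of 8 tested Lama1 (29.7 TPM in EGFPKD) and Sox7 fell in all 4, Lama1 by -0.37, -0.49, -0.36 and -0.39. In the same list Gata6 was called higher in Ddx10KD (1.44), and Col4a1 in Ddx27KD (0.45) and Ddx54KD (0.45). With the block 2, 1, 2 and 1 endoderm markers were called higher and 2 lower in each knockdown. Trophoblast markers summed to 67.1 to 86.6 TPM in EGFPKD and 89.8 to 144.8 in the knockdowns. Most of that sum was Tfap2c, at 65.3 ± 7.52 TPM (SD, n = 3) in EGFPKD and 94.97 to 106.3 in the knockdowns (group means), the 1 of 6 tested called by edgeR without the block. Those Tfap2c calls were lost without EGFPKD replicate 1 (edgeR adjusted p = 0.0600, 0.139, 0.0975 and 0.0673), and the trophoblast genes Tpbpa and Prl3d1 were at 0 in every group. With the block 2, 1, 2 and 3 trophoblast markers were called higher and 0 lower in Ddx10KD, Ddx24KD, Ddx27KD and Ddx54KD. The part of such cells in the levels of the 10 genes was not tested.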

How the data were processed

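Gene values of 15 poly(A) libraries (E14 mouse embryonic stem cells, 5 groups of 3) were used as deposited. The submitters' processing notes name RSEM and mm10. The RSEM version, the aligner, the annotation and any strand setting were not given in the sources used here. As deposited, and per the file headers, the values are expected counts (estimated reads per gene, unscaled), TPM and FPKM (both scaled for length and depth), and transcript lengths in bases. The authors also deposited 1 table per knockdown with posterior probabilities, used as scores, and posterior fold changes, which are ratios of knockdown to control. FPKM was not analysed.

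Expected counts (26836946 to 27708782 per library) were rounded. Genes were filtered with filterByExpr (14335 of 23845 kept) and TMM-scaled, and all 15 libraries were fitted together with the edgeR 4.0.16 quasi-likelihood test (R 4.3.3, limma 3.58.1). P values were adjusted by Benjamini-Hochberg over all tested genes, and a call is an adjusted p under 0.05. P values measure the spread between these replicates. Log2 CPM used a prior count of 2. The script was checked on simulated counts.

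The 10 genes, the gene lists and the tests were chosen with earlier results of these data known. The 10 genes were described against EGFPKD without a test and tested between knockdowns, a comparison that is not independent of the choice. Named besides them are, per list, up to 4 relatives called in all 4 knockdowns in 1 direction, the nearest tested genes, the 8 and 5 genes with the highest correlation, and 5 genes each side of the lowest-ranked of the 10. Genes named outside this rule (Serpinb6a, Ano7, Sec14l1, Rlbp1, Muc15, Zfp142, Sbsn, Krt15, Ivl, Dppa5a, Pou5f1, Nanog, Fgf4, Sox2, Gata6, Col4a1, Tpbpa and Prl3d1) were chosen after their values were seen. Alternatives were RLE factors, DESeq2 1.42.0, no count filter, the replicate block, each library left out in turn, and for transcript length the effective length and a minimum of 50 counts. Correlations with replicate means removed were added after seeing the data.

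Replicate numbers from the labels were checked for pairing. With group means removed, all 30 correlations between same-numbered libraries were above 0.1 (0.106 to 0.335), and all 15 libraries were closest to their own number, so the numbers pair the libraries. Positions are from GENCODE M21 and promoters from RefSeq, on GRCm38 (mm10).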

Additional observations from a re-analysis of the deposited data

How the results depend on the processing

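Against EGFPKD the log2 change of each of the 10 genes kept its sign in all 76 settings run for it. It ranged from 1.83 to 2.96 for Cd109 and from 2.85 to 4.47 for Casp14, which has 12 control counts in all. The number of the 10 genes called among the 4 knockdowns was 0, and it was 1 with DESeq2 and 3 with the replicate block. It was 1 for Ddx10KD against Ddx27KD with the block. For Ddx10KD against Ddx54KD it was 1 with DESeq2, 1 with no count filter and 2 with the block, and for Ddx27KD against Ddx54KD it was 1 with DESeq2 and 2 with the block. With each library left out in turn, these counts were 0 to 2 among the knockdowns, 0 to 2 for Ddx10KD against Ddx54KD, 0 to 1 for Ddx24KD against Ddx54KD, 0 to 1 for Ddx27KD against Ddx54KD, and 0 to 0 in the other 3 pairs. The cause was not tested. Ddx24KD replicate 2 was the library whose removal gave 2 calls among the knockdowns (Serpine2 and Cd109).

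Relatives called against EGFPKD numbered 30, 23, 31 and 17 in Ddx10KD, Ddx24KD, Ddx27KD and Ddx54KD, and with the block 35 in Ddx24KD and 31 in Ddx54KD. With each library left out they were 25 to 32, 17 to 25, 25 to 33 and 15 to 21. The difference in Anxa8 length was -1.40 to -0.512 bases with a library left out, and at a minimum of 50 counts no gene was left. The block changed no other call of the 10 genes. No fold change or count changed its sign, and 38 calls of single relatives or markers were lost in some setting, among them Tfap2c, Thy1 and Sox7 in unpaired fits with a library left out. Counts limit Casp14, Sec14l3 and Plcd4 most.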
